A study of Mus musculus with 2 samples.

Results

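The genes examined here were 10 regulators and matrix genes of bone (Spp1, Runx1, Runx2, Runx3, Sp7, Alpl, Ibsp, Bglap, Dmp1 and Mgp), chosen by symbol from the 21849 genes in the tables of primary and cultured costal-cartilage-derived stem cells (CDSCs). All 10 were measured in both libraries. The study used CDSCs to rebuild the bone marrow environment after injury, and single-cell RNA sequencing compared freshly isolated cells with cultured ones. Primary CDSCs were CD45-CD51+ cells digested from the rib cartilage of C57BL/6J mice in their first week of life, of the CD45.1 or ZsGreen kind, and cultured CDSCs had been expanded in minimum essential medium with fetal bovine serum and antibiotics to passages 2 to 3. CD45 is a surface protein of blood cells and CD51 is the integrin subunit alpha V. Each group was 1 library, the labels do not say how many animals were pooled, and they give bone marrow as the tissue of both. The question put to the data was whether the high level of Spp1 in cultured CDSCs came with other genes of bone formation.

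Bone forms when osteoblasts, guided by the transcription factors Runx2 and then Sp7 (osterix), secrete a collagen I matrix and mineralise it. Tissue-nonspecific alkaline phosphatase (Alpl) frees the phosphate that mineral needs, osteocalcin (Bglap) marks mature osteoblasts, and Dmp1 marks cells on their way to osteocytes. Osteopontin (Spp1), bone sialoprotein (Ibsp) and Dmp1 belong to one family of acidic, integrin-binding phosphoproteins whose genes lie side by side. Spp1 is not specific to bone, since macrophages and some epithelia also make it. Matrix Gla protein (Mgp) is made by chondrocytes and smooth muscle cells and inhibits calcification. Runx1 and Runx3 are relatives of Runx2, and in growing cartilage they share some of its tasks.

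The family genes map to chromosome 5 (build GRCm38), with Dmp1 at chr5:104202613-104214102, Ibsp at chr5:104299171-104311469 and Spp1 at chr5:104435118-104441050, all on the plus strand. Runx proteins recognise a core whose letters are ACCACA, or TGTGGT on the other strand. The 250 bases before 1 annotated start of each of the 3 genes (RefSeq, GRCm38.p6) are shown because Spp1 and Ibsp stood apart from Dmp1 in the measurements that follow, and the capitals mark the core. For Spp1 and Dmp1, which have 2 entries each, the window that holds the core was chosen. They lie at chr5:104434861-104435110 for Spp1, chr5:104299037-104299286 for Ibsp and chr5:104202367-104202616 for Dmp1.
Spp1: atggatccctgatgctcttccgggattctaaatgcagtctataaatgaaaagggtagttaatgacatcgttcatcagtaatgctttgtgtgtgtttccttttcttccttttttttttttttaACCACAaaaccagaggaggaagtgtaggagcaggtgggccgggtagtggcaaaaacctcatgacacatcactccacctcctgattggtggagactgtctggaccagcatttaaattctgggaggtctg
Ibsp: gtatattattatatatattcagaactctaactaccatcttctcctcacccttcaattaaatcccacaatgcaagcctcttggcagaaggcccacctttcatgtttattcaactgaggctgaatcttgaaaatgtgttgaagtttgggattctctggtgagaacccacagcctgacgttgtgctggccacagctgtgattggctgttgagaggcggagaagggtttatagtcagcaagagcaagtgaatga
Dmp1: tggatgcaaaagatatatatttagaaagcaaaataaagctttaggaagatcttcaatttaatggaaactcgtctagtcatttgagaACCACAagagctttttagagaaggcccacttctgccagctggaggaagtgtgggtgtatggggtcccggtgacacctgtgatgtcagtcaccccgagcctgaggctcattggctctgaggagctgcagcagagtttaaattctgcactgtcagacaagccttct
The core stood 128 bases before the Spp1 start and 164 bases before this Dmp1 start, and it was not found in the Ibsp window. Across all starts with an entry, 5 of 13 windows of these genes held it, at Spp1, Dmp1, Bglap, Runx2 and Runx3, against 14.0% of 32851 windows genome-wide. Such a match describes the letters and does not show binding. Sp7 and Mgp had no entry.

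Transcripts were counted as unique molecular identifiers (UMIs), a tag that marks 1 captured molecule. A barcode was kept when it had 500 or more genes, 1000 or more UMIs and no more than 10% of them mitochondrial. This left 11746 of 11896 primary barcodes with 137148874 UMIs and 5338 of 10798 cultured barcodes with 330129909 UMIs, with medians of 10026.5 and 56864.5 UMIs per cell. Kept barcodes shared by the libraries numbered 15. All 12 chondrocyte markers of a fixed list reached 10 CPM (a gene's UMIs scaled to 1000000 in the library) in the primary library, against 3 of 12 in the cultured library, and their summed level was 89243 against 1043 CPM. The 7 markers of blood cells summed to 8.33 and 31.0 CPM, with none at 0. Since both groups had a single library, replicate error is unknown and nothing was tested, and culture cannot be told apart from a difference between animals, preparations or sequencing runs. The ranges in parentheses are exact 95% intervals for counting error alone.

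Of the 10 genes, Spp1 and Ibsp were at least 4-fold higher in cultured CDSCs and none was at least 4-fold lower. For comparison, 17307 genes had over 3 counts in a library, and 11.6% of them passed that limit upward and 11.2% downward. Among genes with 10 CPM in a library, 1 of 5 of the bone genes (Spp1) passed it upward against 10.6% in general. At a 2-fold limit, 2 of the 10 (Alpl and Mgp) were lower, against 21.0% of all genes. Alpl was just past that limit at -1.01 and no longer past it, at -0.46, when every cell weighed the same. The median log2 ratio of cultured over primary CPM was -0.07 over the 10 genes and 0.21 over all 17307. The other 8 lay within 4-fold, from -1.48 for Mgp to 0.48 for Sp7. TMM scaling, which centres the bulk of genes, moved the median of all genes by -0.20.

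**Figure D1:**
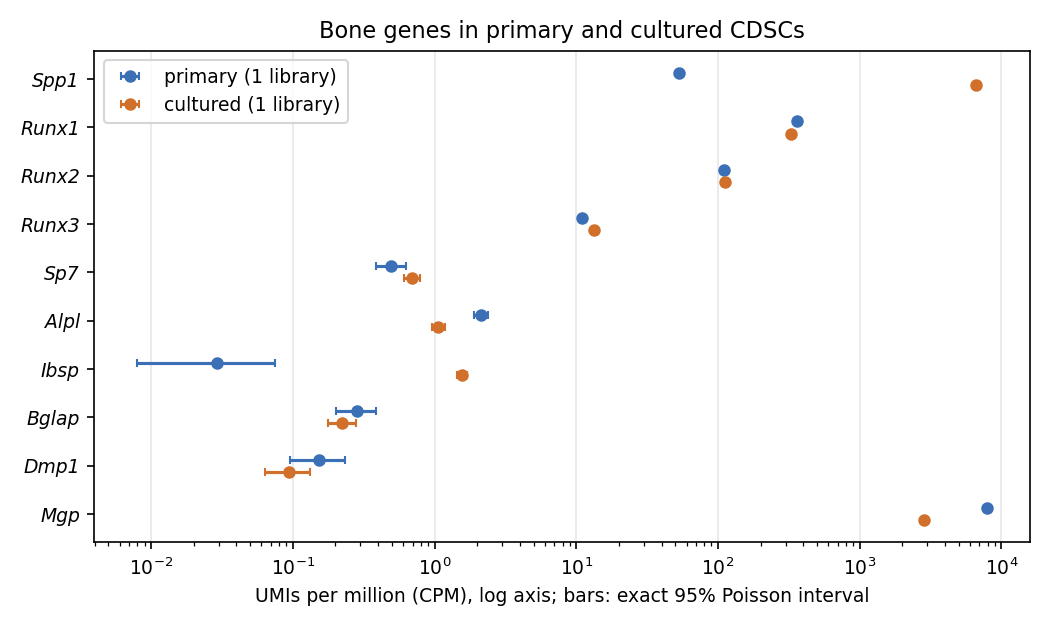
Level of each of the 10 bone genes in CPM (log axis) in the primary and the cultured library, 1 library each, with the exact 95% Poisson interval as bars, to be compared within a gene. Spp1 and Ibsp are shifted far to the right in the cultured library, Mgp and Alpl to the left, and the intervals of Runx2, Sp7, Bglap and Dmp1 overlap between the libraries.

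Spp1 was counted 7289 times in the primary library, or 53.1 CPM (51.9 to 54.4). In the cultured library it was counted 2169970 times, or 6573 CPM (6564 to 6582). The cultured level was 124-fold higher (121 to 127), a log2 ratio of 6.95 that ranked 74 among the 17307 genes.

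Spp1 was found in nearly every cultured cell. After each cell was thinned to 5000 UMIs, 13.9% of 10959 primary cells held a Spp1 UMI (13.3 to 14.6), against 99.1% of 4543 cultured cells (98.8 to 99.4). Without thinning the shares were 21.1% and 99.9%. At 5000 UMIs the median primary cell held 0 Spp1 UMIs and the highest 41. The median cultured cell held 22, the cells at the 10th and 90th percentiles 4 and 85, and the highest 760. The distributions overlapped at low counts, with 10 or more UMIs in 73.5% of cultured and 0.365% of primary cells. Cells that should lack Spp1 could not be found in the cultured library: the 9 blood-like cells, whose leading genes include the macrophage genes Pf4, Lyz2 and C1qb, all held it, and the barcodes that failed the filter had 5281 CPM. The part of free RNA in the share was not tested.

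**Figure D2:**
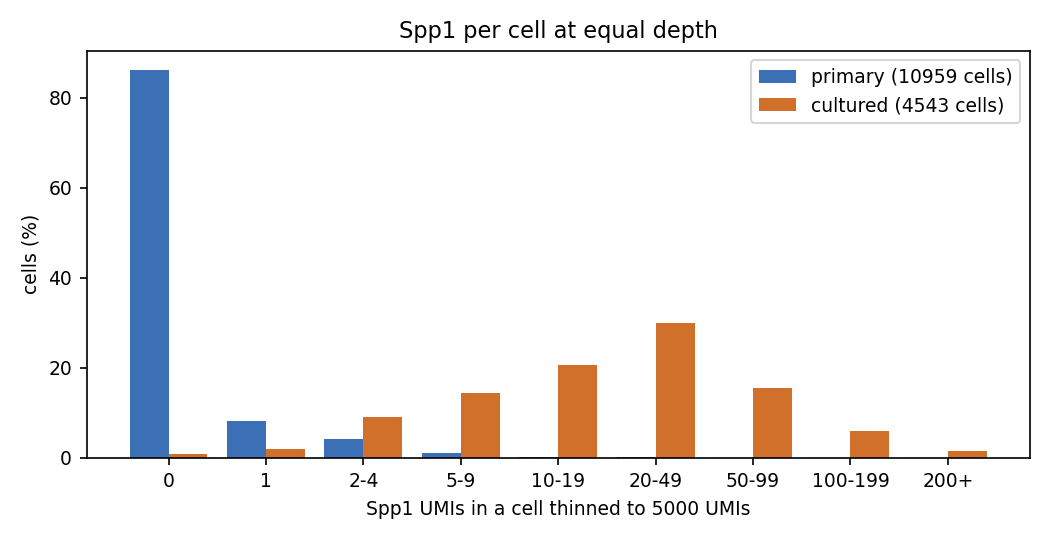
Share of cells (%) by the number of Spp1 UMIs in a cell after thinning to 5000 UMIs, for 10959 primary and 4543 cultured cells of 1 library each. Of the primary cells 86.1% are at 0, while the cultured cells spread from 0 to 760 with a median of 22.

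Ibsp, the adhesive mineral-binding protein of early bone, was the other gene at least 4-fold higher. It was counted 4 times in the primary library (0.0292 CPM, 0.00795 to 0.0747) and 516 times in the cultured library (1.56 CPM, 1.43 to 1.70). The ratio was 53.6-fold with a wide interval (20.8 to 197), a log2 ratio of 5.74 that became 4.75 without the cells most likely to be doublets. In contrast to Spp1, Ibsp came from very few cells. Of the 5338 cultured cells, 34 held an Ibsp UMI, and 8 cells with at least 10 UMIs held 456 of the 516 counts (88.4%). The highest cell alone held 119. In those 8 cells Spp1 ranged from 284 to 11986 CPM, Sp7 was found in 5 and Alpl in 5, and neither Bglap nor Dmp1 in any. At equal depth, 0.220% of cultured cells held Ibsp (0.106 to 0.404) against 0.00912% of primary cells (0.000231 to 0.0508).

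Dmp1, the third member of the family in this set, was rare in both libraries. It was counted 21 times (0.153 CPM) in primary and 31 times (0.0939 CPM) in cultured CDSCs, and the interval of its log2 ratio of -0.71 ran from -1.55 to 0.17. Of the other family genes on chromosome 5, Mepe, which regulates matrix mineral, was counted 5 times in each library. Dspp, a dentin gene, was counted 0 times, and its exact interval reached 0.0269 CPM in primary and 0.0112 CPM in cultured CDSCs. Apart from Spp1 and Ibsp, no measured gene in the region was at least 4-fold higher. Pkd2, a calcium channel gene whose start lies 24.3 kb away, had a log2 ratio of 0.66 (0.63 to 0.69), and Thoc2l at 90.6 kb had -1.09 (-1.12 to -1.06). Sparcl1, a matrix gene 321.4 kb upstream, went from 283 to 1.24 CPM, a log2 ratio of -7.84. These neighbours were named for their position.

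**Figure D3:**
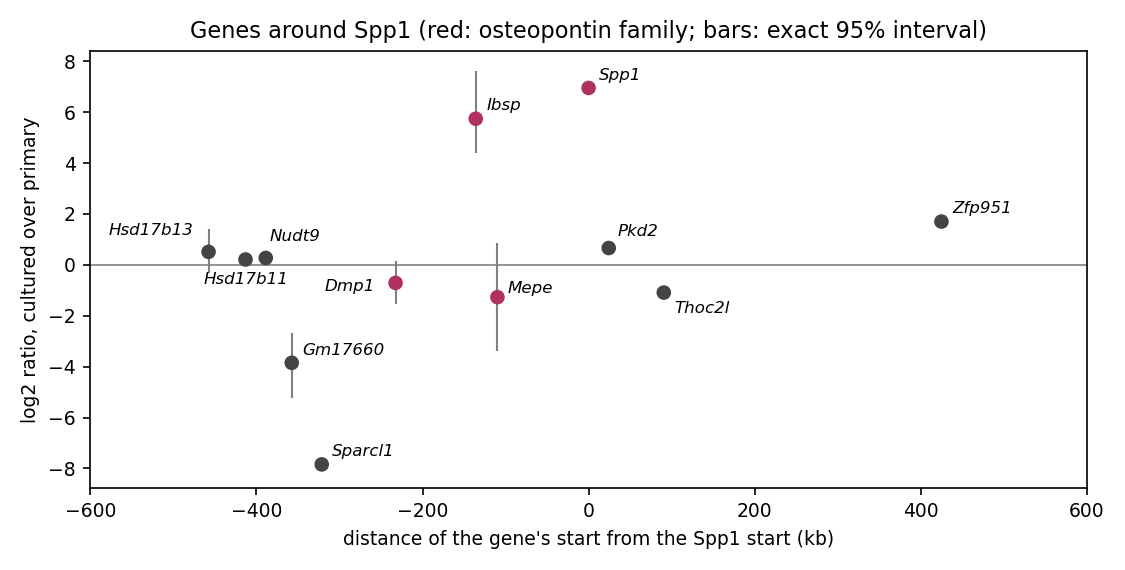
Log2 ratio of cultured over primary CPM for the measured genes around Spp1 against the distance of their start from the Spp1 start (kb), with exact 95% intervals and genes of the osteopontin family in red. Spp1 (6.95) and Ibsp (5.74) stand above 4, Dmp1 and Mepe have intervals that include 0, and Sparcl1 lies at -7.84.

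The Runx genes were close to level. Runx1 (chr16:92601466-92826149), best known from blood development and also a cartilage factor, had 364 CPM (361 to 367) in primary and 326 CPM (324 to 328) in cultured CDSCs, a log2 ratio of -0.16. Runx2 (chr17:44495987-44814797) had 110.0 CPM (108 to 112) and 112 CPM (111 to 113). Its ratio of 0.03 was -0.17 after TMM scaling and -0.07 when every cell weighed the same, so its sign depends on the scaling. Runx3 (chr4:135120652-135177990) had 11.0 CPM (10.4 to 11.6) and 13.4 CPM (13.0 to 13.8), a log2 ratio of 0.29. At 5000 UMIs, Runx1 was found in 70.8% of primary and 69.4% of cultured cells and Runx2 in 34.9% and 37.6%. Runx3 was found in 3.66% and 5.86%. Without thinning, where cultured cells were the deeper ones, the Runx2 shares were 54.1% and 77.0%.

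Sp7 and the later osteoblast genes were scarce. Sp7 (chr15:102356606-102367182) was counted 68 times in primary CDSCs (0.496 CPM, 0.385 to 0.629) and 228 times in cultured CDSCs (0.691 CPM, 0.604 to 0.786). Its log2 ratio of 0.48 (0.08 to 0.89) became -1.05 without the cultured cluster led by Mmp13 that is described further on. Alpl (chr4:137741733-137796384) was counted 294 times (2.14 CPM, 1.91 to 2.40) and 351 times (1.06 CPM, 0.955 to 1.18). It was 2.02-fold lower in cultured CDSCs, with a log2 ratio of -1.01 (-1.24 to -0.78) that became -2.21 without that cluster and was then past 4-fold. Bglap (chr3:88383501-88384464) was counted 39 and 74 times, or 0.284 CPM (0.202 to 0.389) and 0.224 CPM (0.176 to 0.281). The interval of its log2 ratio, -0.92 to 0.26, included 0. Its near-identical copies Bglap2 (1.17 and 0.618 CPM) and Bglap3 (0.117 and 0.0242 CPM) can exchange reads with it, so the split among the 3 genes is uncertain. At equal depth Sp7 was found in 0.182% and 0.528% of cells, Alpl in 0.858% and 0.506%, and Bglap in 0.109% and 0.110%. In cultured barcodes that failed the filter, Sp7, Alpl, Ibsp and Bglap had 2 or 3 counts each, with upper bounds from 1.15 to 1.39 CPM. The library levels of Sp7, Alpl and Bglap lay below those bounds, so at this depth they could not be separated from the levels in those barcodes. Whether those barcodes hold free RNA was not tested.

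Mgp (chr6:136872435-136875823) was abundant in both libraries and lower in the cultured one. It had 7927 CPM (7913 to 7942) in primary and 2841 CPM (2836 to 2847) in cultured CDSCs, a log2 ratio of -1.48, or 2.79-fold lower, and -1.68 after TMM scaling. At 5000 UMIs the median primary cell held 31 Mgp UMIs and the median cultured cell 10. The SDs across cells were 42.5 and 22.1. The gene was found in 99.6% and 94.7% of cells, so it differed from Spp1 in direction and was common in both libraries.

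The wider bone-related lists showed no common direction. Of 71 further genes in 7 lists, 68 had a ratio, of which 15 were at least 4-fold higher, 13 at least 4-fold lower and 40 within 4-fold, with a median log2 ratio of -0.12, where 11.6% of all 17307 genes were that much higher and 11.2% that much lower. Among 12 bone matrix genes the median was -1.84, with 2 higher and 5 lower. Collagen I alpha 1 (Col1a1), the main fibre of bone, went from 149 to 705 CPM (2.24) and its partner Col1a2 from 691 to 187 CPM (-1.88). Ogn, a small leucine-rich proteoglycan, had a log2 ratio of 2.43. Another small proteoglycan of bone, Omd, lay on the other side at -5.98. So did the collagen-binding Sparc (osteonectin) at -3.89 and the vessel-inhibiting Serpinf1 at -2.65. Among 12 osteoblast transcription factors and cofactors, 2 were higher and 2 lower with a median of -0.08. Twist1, which restrains Runx2, was at 2.90 and Atf4, which drives late osteoblast genes, at -2.04. Dlx3, a homeobox factor, was also lower (-2.80). The Runx partner Cbfb had a log2 ratio of -0.50. In the osteopontin family and osteocyte list, Spp1, Ibsp and Dmp1 were set aside as they are among the 10 genes. Of the 5 further genes with a ratio, none passed 4-fold. Pdpn of early osteocytes had 1.41 and Fam20c, the kinase of these phosphoproteins, -0.77.

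Genes that handle mineral ions were also divided. Of 12, Gas6, a vitamin K-dependent protein, was higher (2.78), and 3 were lower. These were Enpp1, which makes the mineral inhibitor pyrophosphate (-2.70), Smpd3, a sphingomyelinase that mineralisation needs (-2.56), and Vkorc1, which recycles the vitamin K used to modify Mgp and osteocalcin (-2.43). Of 11 measured receptors and proteases of osteopontin, 3 were higher and none lower, where 11.6% of all genes were higher. Cd44, a receptor of osteopontin and hyaluronan, went from 8.11 to 358 CPM (5.46), the integrin subunit Itgb1 was at 2.06 and the protease Mmp3 at 2.47. The integrin subunits Itga9 (-1.84) and Itgb5 (0.69) stayed within 4-fold. The list with the highest median, 2.99, was that of osteoclast coupling, the signals between bone-forming cells and osteoclasts. In it 5 of 8 genes were higher, against 11.6% of all genes, and none lower, namely Sema3a (5.90), Il6 (5.17), the osteoclast factor RANKL (Tnfsf11, 4.19, from 0.343 to 6.23 CPM), Csf1 (3.94) and Efnb2 (2.03). Of 8 genes listed for hypertrophic chondrocytes, the cells that precede bone in cartilage, Mmp13 (7.19) and Col10a1 (2.38) were higher. Ihh (-5.69), Sox9 (-4.01) and Pth1r (-2.97) were lower, and Sox9 is also one of the general chondrocyte markers of the fixed list. Dlx3, Cbfb, Col1a1, Col1a2, Mmp3, Tnfsf11, Col10a1 and Ihh fell outside the rule for named genes and were named after their values were seen.

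**Figure D4:**
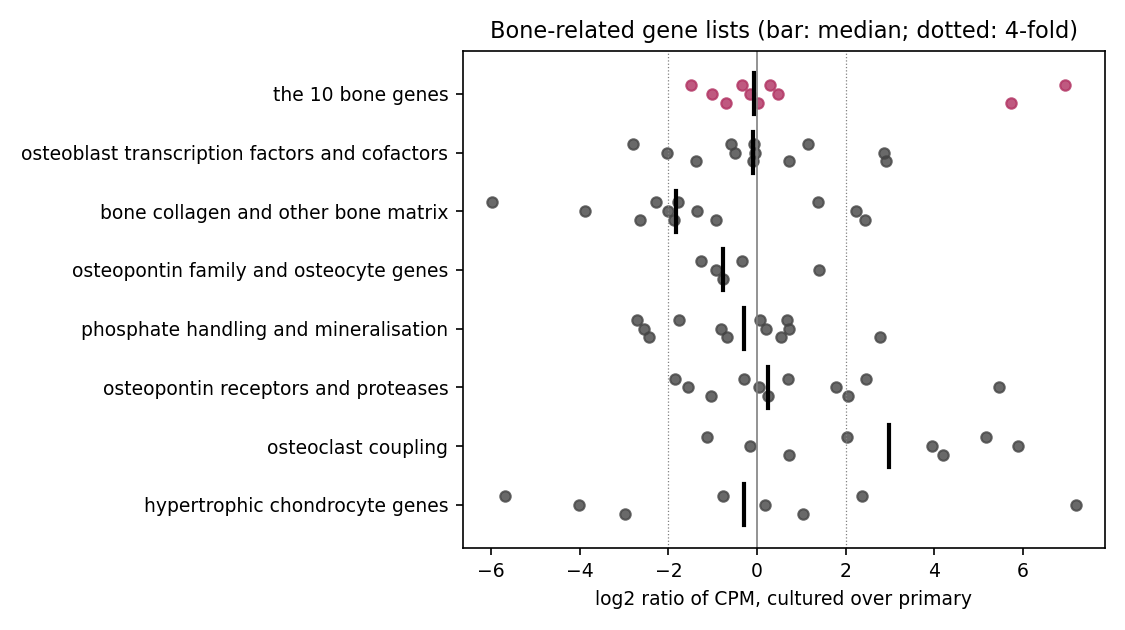
Log2 ratio of cultured over primary CPM of each gene (points) in the 10 bone genes and in 7 wider lists, with list medians as bars and the 4-fold limits dotted. The 10 bone genes have a median of -0.07 with Spp1 and Ibsp far to the right, the bone matrix list lies lowest (-1.84) and the osteoclast coupling list highest (2.99).

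Cells were clustered separately per library with the 10 genes kept out of the clustering, and clusters are called here by their leading genes. Of the 10 primary clusters, 9 were chondrocyte-like. Spp1 was highest, at 175 CPM, in the cluster led by Tll1 and Clu, which also has Prg4, the lubricin of the joint surface, among its leading genes. That cluster of 2379 cells held 51.3% of the library's Spp1 counts, and the other clusters had 1.95 to 58.4 CPM. Mgp was also highest there, at 15972 CPM, against 2078 to 10315 CPM elsewhere. Runx3 had 79.3 CPM (74.2 to 84.7) in the 878 cells led by Slc35f1 and Runx3 itself, which held 59.7% of its counts. Sp7 had 2.65 CPM (1.79 to 3.78) in those cells against 0.302 CPM in the other primary cells.

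Sp7 and Alpl in the cultured library were concentrated in 1 cluster of 649 cells led by Mmp13, the collagenase of late hypertrophic cartilage and bone. Its leading genes also include the cartilage matrix gene Comp. Mmp13 itself was found in 155 of the 649 cells (23.9%) without thinning, against 8.57% of the other cultured cells, so most cells of the cluster held none. This cluster held 10.2% of the library's UMIs, 68.9% of the Sp7 counts and 61.0% of the Alpl counts. Sp7 had 4.65 CPM (3.95 to 5.44) there and 0.240 CPM (0.187 to 0.302) in the other cultured cells, 19.4-fold apart. Alpl had 6.34 CPM (5.52 to 7.25) and 0.462 CPM (0.388 to 0.546), 13.7-fold apart. The counts were spread over 95 and 68 cells of the cluster, and both levels lay above the upper bounds from barcodes that failed the filter. In all, 4 of the 10 genes were at least 4-fold higher in this cluster than in the other cultured cells, against 5.23% of 16591 genes. The remaining pair rested on 1 or 2 cells each. Ibsp had 6.49 against 1.00 CPM, with 183 of its 219 counts in 2 cells, and Bglap had 0.978 against 0.138 CPM, with 29 of 33 counts in 1 cell and 0.119 CPM without that cell.

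Runx2 in the Mmp13-led cluster was 224 CPM (219 to 229) against 99.4 CPM (98.3 to 101) in the other cultured cells, 2.25-fold higher. Spp1 was 1.92-fold higher, at 11536 against 6008 CPM, and Mgp 2.05-fold higher, at 5262 against 2566 CPM. At a clustering resolution of 1.0 in place of 0.5, 336 cells, all from this cluster, kept Sp7 at a log2 ratio of 4.40 and Alpl at 4.02 over the other cells. Spp1 was high well beyond this cluster, since the cultured clusters of at least 100 cells ranged from 2311 CPM in the cells led by Ptn and Myh11 to 11536 CPM here. A shallow cluster of 735 cells with a median of 1204 UMIs had 6324 CPM.

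**Figure D5:**
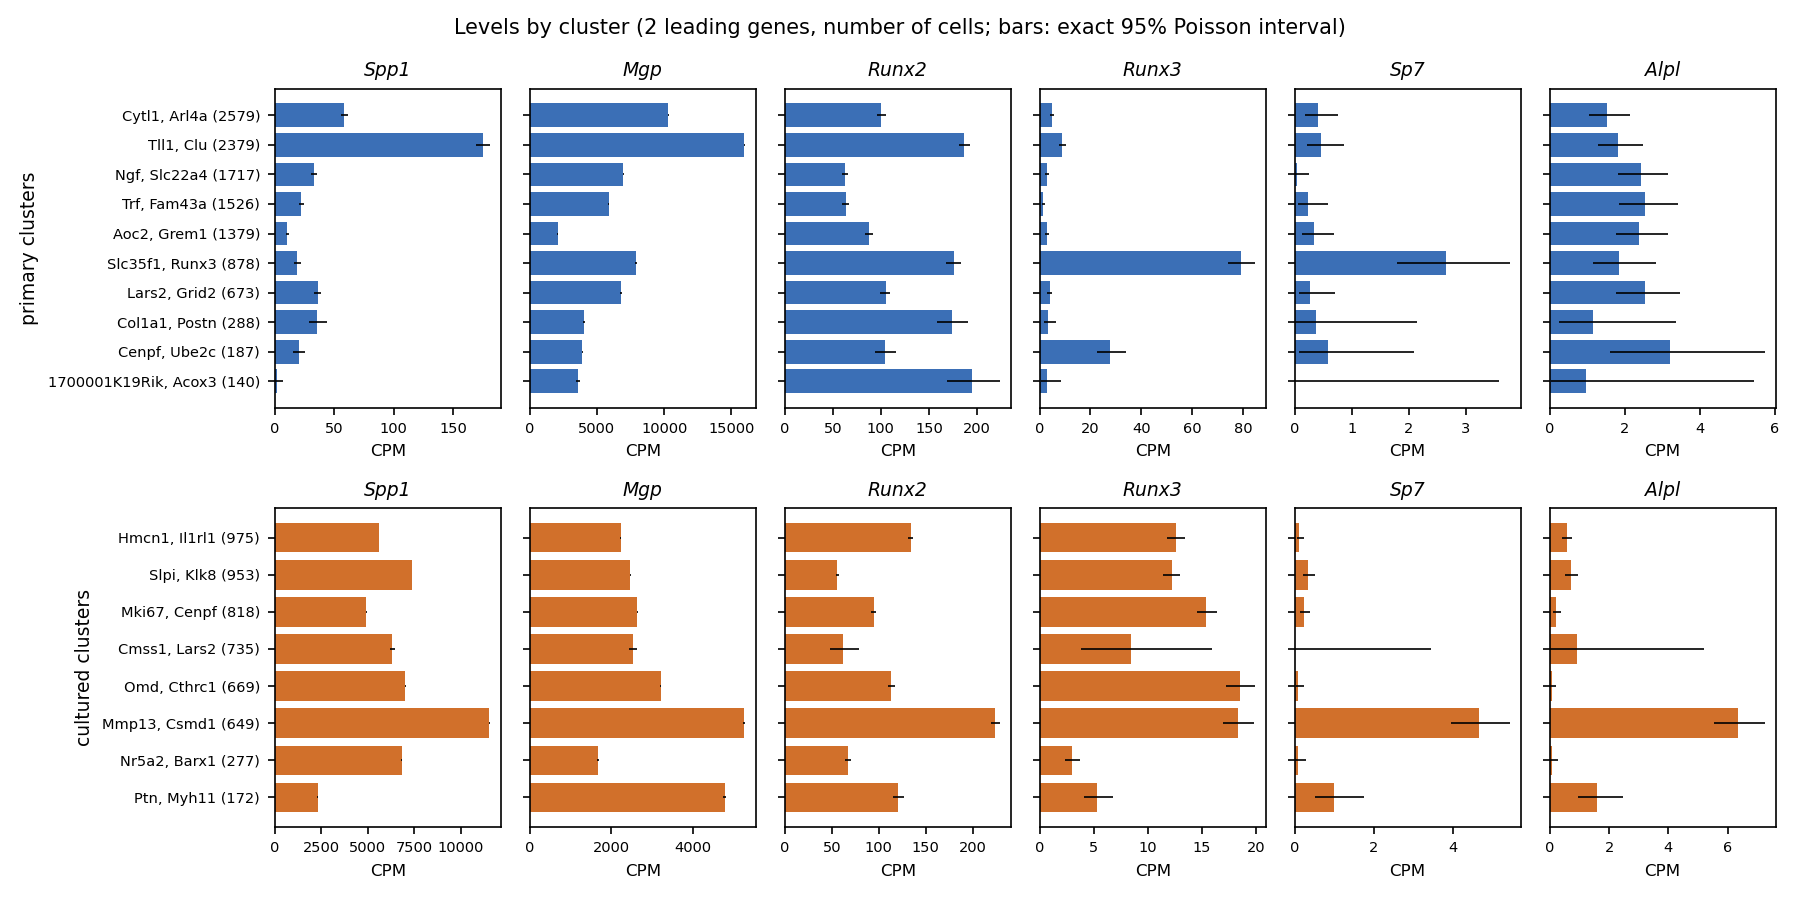
Level (CPM) of Spp1, Mgp, Runx2, Runx3, Sp7 and Alpl in each cluster of at least 100 cells, primary above and cultured below, with exact 95% Poisson intervals. In the cultured library Sp7 (4.65) and Alpl (6.34) peak in the Mmp13-led cluster while Spp1 is above 2000 CPM in every cluster shown, and in the primary library Runx3 and Sp7 peak in the cells led by Slc35f1 and Spp1 in those led by Tll1.

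Within each library, the cells richest in Spp1 were compared with the rest, as a description over cells that share a library. At 5000 UMIs per cell, Pearson correlations of log2(1 + UMIs) with Spp1 over 4543 cultured cells were 0.28 for Mgp, 0.11 for Runx1 and at most 0.04 for the other genes. Over 10959 primary cells they were 0.24 for Mgp, 0.13 for Runx2 and at most 0.02 for the others. Weak values for scarce genes are not read. When cultured cells were ordered by Spp1 and split into 4 parts of about equal size at 5000 UMIs, their full counts gave the levels that follow, at median depths of 67660, 71241.5, 73090.5 and 54468 UMIs per cell. Spp1 had 1149, 3005, 6410.5 and 17749 CPM in these parts, and Mgp had 2049.8, 2380.3, 2896 and 4301 CPM. Runx2 had 112, 117, 109 and 111 CPM over the same parts, without a trend. Sp7 went from 0.491 CPM (0.353 to 0.666) in the lowest to 1.21 CPM (0.963 to 1.49) in the highest part, and Alpl from 0.611 (0.455 to 0.803) to 1.61 CPM (1.33 to 1.94). Ibsp had 1.55, 1.04, 2.06 and 1.62 CPM, and Bglap 0.228, 0.472, 0.101 and 0.0719 CPM. In the primary library, the 1524 cells with a Spp1 UMI after thinning had 13149 CPM of Mgp and 157 CPM of Runx2 in their full counts (median 8657 UMIs). The 9435 cells with none after thinning had 7141 and 101 CPM (median 10694 UMIs), and 817 of these held a Spp1 UMI at full depth.

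The genes most like Spp1 across cells differed between the libraries except for Mgp. In the primary library they were Clu (0.32), a secreted chaperone, then Scara3, Cdkn1c, Igfbp7 and Mgp (0.24) among 3180 genes found in at least 20% of cells. In the cultured library they were Itm2b (0.29), Mgp (0.28), Bsg, Mme and Fth1 (0.26) among 3704 genes. Those most like Mgp were Igfbp7 (0.49), Clu, Plcb1, Klf2 and Pam (0.43) in primary and Spp1 (0.28), Ifitm3, Ecrg4, Igfbp4 and Serpine2 (0.24) in cultured CDSCs.

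Scarce bone genes met in some of the same cultured cells. Of 145 cells with Sp7 and 130 with Alpl, 30 held both, or 20.7% and 23.1% of each. Of the 34 cells with Ibsp, 14 also held Sp7 and 12 held Alpl, and deeper cells hold more of any gene. Of the cells with Bglap, 3 held Sp7 (7.89%). No cell with Bglap held Alpl, Ibsp or Dmp1, and no cell with Dmp1 held Sp7. Bglap was found in 38 cultured cells and Dmp1 in 19, so a small overlap was not detectable at this depth.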

How the data were processed

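Single-cell RNA sequencing (10x Chromium 3' chemistry) had been performed on 1 library each of primary and cultured CDSCs, with 20000 viable cells prepared. Per the labels, the authors used Cell Ranger 7.0.0, and they deposited whole-number UMI counts of each gene in each barcode. The submitters' processing notes name mm10, GRCm38 and GRCm39 without roles, and gene coordinates here came from GENCODE M21 (GRCm38) by gene identifier. The thresholds of the study's cell filter were not given, so the filter stated above was set for this work. The genes and lists were chosen with earlier results of these data known.

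Counts were summed over kept cells and scaled to CPM (Python 3.11.15). Counts under 3 were raised to 3 in ratios, a floor worth 0.0219 primary CPM and 0.00909 cultured CPM, and a gene with neither count above 3 got no ratio. Levels have exact Poisson, shares exact Clopper-Pearson and ratios exact conditional intervals. Of these, only the ratio intervals were tested on simulated counts. Cells were thinned without replacement to 5000 UMIs, and 787 primary and 795 cultured cells were too shallow. Scrublet called 0 cells in either library and had not worked, so doublets stayed in, and an alternative left out 1118 and 461 cells of highest score. Leiden clusters (scanpy 1.11.5, leidenalg 0.10.2) used resolution 0.5, 20 neighbours and 10 principal components of 2000 variable genes without the 10 genes, Bglap2 and Bglap3. A cluster was called chondrocyte-like where no class had at least 3 markers at 50 CPM and a 4-fold excess while 3 or more chondrocyte markers reached 1000 CPM. The primary Spp1 counts were mostly 0, so cells with and without a UMI took the place of the 4 parts there. From each wider list, up to 4 genes with at least 10 CPM and the largest absolute log2 ratio were open to naming. Fosl2, Tcf7l2 and Mef2c came within this rule but were left out of the results. The family genes on chromosome 5 and the 5 genes most like Spp1 and Mgp were also named. TMM factors came from edgeR 4.0.16. The value of 1 gene counted in the wider lists is not reported here. Alternatives varied the filter, doublets, scaling, cell weights, fold and depth.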

Additional observations from a re-analysis of the deposited data

Results flagged for a closer look

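Barcodes that failed the cell filter enter no comparison, yet several of the 10 genes were above 3 counts in them. In the 5460 such cultured barcodes (6298068 UMIs, median 775 UMIs) the levels were 5281 CPM for Spp1, 353 for Runx1, 153 for Runx2, 11.7 for Runx3 and 2001 for Mgp. In the 150 such primary barcodes (210140 UMIs) they were 47.6 CPM for Spp1 from 10 counts (22.8 to 87.5), 528 for Runx1, 252 for Runx2, 38.1 for Runx3 from 8 counts and 3122 for Mgp. Spp1 thus differed between the libraries in these barcodes as well. Whether they hold broken cells or free RNA was not tested.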

How the results depend on the processing

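Spp1 and Ibsp stayed at least 4-fold higher under every alternative that tested both. Of the genes within 4-fold, Sp7 changed sign without the cultured cluster led by Mmp13 (from 0.48 to -1.05), and Runx2 went from 0.03 to -0.17 with TMM scaling, -0.07 with each cell weighing the same and -0.15 without that cluster. Where genes needed 10 CPM, 1 of 5 tested genes was higher, because Ibsp was not tested. At 2-fold, 2 of the 10 genes (Alpl and Mgp, with Alpl at -0.46 when each cell weighed the same) and 23 of the wider lists were lower. Without the cultured cluster led by Mmp13, an alternative added after seeing the data, 1 gene (Alpl) was at least 4-fold lower and Bglap moved to -1.04. The log2 ratio of Spp1 was 6.75 with TMM scaling, 6.76 with each cell weighing the same and 6.82 without that cluster. Where a cell needed 2 UMIs in place of 1, 3 of the 10 genes had a higher share of cells in culture, in place of 6. The 51 other combinations of a main result and an alternative were not classed as moves, although counts could still change within the ratio allowed. They include the share of cells without thinning, where 9 of the 10 genes were higher in culture. Leaving out clusters named for blood or vessel cells removed only 9 cultured cells. No paired analysis was possible because each group is 1 library, and for the same reason no replicate could be left out. Depth limits Ibsp and Sp7 in the primary library and Bglap and Dmp1 in both, each under 100 counts.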
